A study of Mus musculus with 4 samples.

Results

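The genes of the DNA methylation machinery described here are Dnmt1, Dnmt3a and Dnmt3b, which write 5-methylcytosine, Uhrf1, which guides Dnmt1, Tet1, Tet2 and Tet3, which start its removal, and Mbd1 and Mbd2, which bind it. They are 9 of 21853 protein-coding genes with an annotated coding start site. They were chosen by name, with earlier results of these data known. The measurement was histone H3 trimethylated at lysine 4 (H3K4me3), a mark found at promoters, and the assay was ChIP-seq, the sequencing of DNA recovered with an antibody to the mark. The tissue was frozen hippocampus (labelled as a layer, with no layer named) from male B6CASTF1/J mice at 2 months, a first-generation hybrid strain, without treatment or engineered allele named in the labels. Chromatin came from a pool named D, biological replicate 1, and a pool named C, which is biological replicate 2. Each was made of 7 tissue samples and was sequenced as 2 technical replicate libraries. There is 1 deposited peak list per pool, 1 list of replicated peaks and 1 list called on both pools together.

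The pools mix animals, cell types and both parental alleles, so a peak says that some of the cells or alleles carried the mark, and fewer marked cells cannot be told apart from less mark per cell. No condition was compared in the study, so the values below are described across start sites, genes and the pair of pools, without a test. An error is the SD over the pools (n = 2). The pools' read depth is unknown.

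In mammals DNA methylation sits mostly at cytosines followed by guanine (CpG). Dnmt3a and Dnmt3b methylate unmodified DNA de novo, and a domain of these enzymes binds the histone H3 tail when lysine 4 is unmethylated, so that H3K4me3 and new DNA methylation tend to exclude each other. Dnmt1 copies methylation to the new strand behind the replication fork, where Uhrf1 recognises the hemimethylated site. The Tet enzymes oxidise 5-methylcytosine to 5-hydroxymethylcytosine and further forms, and neurons are known for high levels of 5-hydroxymethylcytosine. Methyl-CpG binding proteins such as Mbd1 and Mbd2 link methylated DNA to repressor complexes.

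Several of these genes have separate start sites that differ in CpG content, in whether a peak lies on them or in the breadth of the domain there. The 250 bases before 8 such start sites are printed from the mm10 genome, 5′ to 3′ on the strand of the gene, with CpG dinucleotides in capitals. They are shown so that the start sites of 1 gene can be compared. The Dnmt1 pair lies on chromosome 9, minus strand, and holds 2 CpG in chr9:20959889-20960138 (Dnmt1-202, without a peak) and 7 in chr9:20952980-20953229 (Dnmt1-201, with a peak). The Dnmt3a pair lies on chromosome 12, plus strand, and holds 37 CpG in chr12:3806780-3807029 (Dnmt3a-201, with a peak) and 16 in chr12:3891478-3891727 (Dnmt3a-205, with a peak in pool C but not in pool D). The Tet1 pair lies on chromosome 10, minus strand, and holds 8 CpG in chr10:62887513-62887762 (Tet1-210) and 6 in chr10:62865305-62865554 (Tet1-202), both with a peak. The Tet3 pair lies on chromosome 6, minus strand, and holds 38 CpG in chr6:83456393-83456642 (Tet3-203) and 17 in chr6:83441679-83441928 (Tet3-201), both with a peak. Tet3-201 has no coding annotation, and 174 of its 250 bases lie in annotated exons of another gene, B230319C09Rik.
Dnmt1-202: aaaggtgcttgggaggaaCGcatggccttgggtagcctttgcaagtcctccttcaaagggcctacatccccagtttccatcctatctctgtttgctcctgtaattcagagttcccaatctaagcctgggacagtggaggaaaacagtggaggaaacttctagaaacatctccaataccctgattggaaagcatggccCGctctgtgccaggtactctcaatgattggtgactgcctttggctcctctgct
Dnmt1-201: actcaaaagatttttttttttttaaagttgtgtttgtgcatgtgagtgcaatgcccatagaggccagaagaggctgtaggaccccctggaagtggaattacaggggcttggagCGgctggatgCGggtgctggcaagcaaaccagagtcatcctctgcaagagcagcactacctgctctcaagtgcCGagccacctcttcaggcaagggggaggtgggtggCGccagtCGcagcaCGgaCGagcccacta
Dnmt3a-201: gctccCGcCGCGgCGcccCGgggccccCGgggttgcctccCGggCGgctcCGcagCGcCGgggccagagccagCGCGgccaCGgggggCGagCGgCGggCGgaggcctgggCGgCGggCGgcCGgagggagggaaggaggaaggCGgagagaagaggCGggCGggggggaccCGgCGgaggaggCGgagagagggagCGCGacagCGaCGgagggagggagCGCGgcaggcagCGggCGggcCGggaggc
Dnmt3a-205: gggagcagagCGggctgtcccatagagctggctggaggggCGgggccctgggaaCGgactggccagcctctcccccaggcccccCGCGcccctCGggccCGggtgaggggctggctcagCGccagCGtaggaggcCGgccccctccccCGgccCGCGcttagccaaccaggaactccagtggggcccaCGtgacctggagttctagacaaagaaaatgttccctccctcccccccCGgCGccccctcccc
Tet1-210: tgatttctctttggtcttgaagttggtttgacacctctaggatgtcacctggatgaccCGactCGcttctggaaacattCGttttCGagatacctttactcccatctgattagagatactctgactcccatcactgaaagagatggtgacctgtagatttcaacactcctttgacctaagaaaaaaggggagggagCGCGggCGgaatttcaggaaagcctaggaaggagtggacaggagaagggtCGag
Tet1-202: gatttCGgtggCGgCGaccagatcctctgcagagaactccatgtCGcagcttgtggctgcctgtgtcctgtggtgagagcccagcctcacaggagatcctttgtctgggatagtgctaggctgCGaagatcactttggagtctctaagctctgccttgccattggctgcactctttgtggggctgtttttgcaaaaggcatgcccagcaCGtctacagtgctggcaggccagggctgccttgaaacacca
Tet3-203: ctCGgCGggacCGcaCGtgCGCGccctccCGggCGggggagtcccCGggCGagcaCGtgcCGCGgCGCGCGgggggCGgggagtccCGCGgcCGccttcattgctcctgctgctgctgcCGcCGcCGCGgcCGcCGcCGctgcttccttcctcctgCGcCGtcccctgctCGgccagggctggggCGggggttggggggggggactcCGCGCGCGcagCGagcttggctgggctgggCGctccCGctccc
Tet3-201: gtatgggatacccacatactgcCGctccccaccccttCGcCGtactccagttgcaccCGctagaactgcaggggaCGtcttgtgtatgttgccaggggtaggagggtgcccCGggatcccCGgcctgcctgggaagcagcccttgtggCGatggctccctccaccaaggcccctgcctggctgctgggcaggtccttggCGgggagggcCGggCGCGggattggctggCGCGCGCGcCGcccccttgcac

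A gene was called marked where a peak came within 1 kb, upstream or downstream, of the start of any of its protein-coding transcripts in GENCODE M21. Peaks within 1 kb of each other were joined into a domain, and the broadest domain stood for the gene. Starts of any transcript within 500 bp of each other are called a start-site group. The signal is the authors' enrichment value of the strongest peak in a domain, given below as its rank within 1 list, and −log10 q is their adjusted confidence in a peak. All 9 genes were marked in the replicated list, where 64.8% of protein-coding genes were. The same 9 were marked in pool D, against 63.7% of genes, and in pool C, against 66.3%. Their median domain was 1949 bp in the replicated list, 1881 bp for pool D and 1991 bp for pool C. The medians over all marked genes were 2234, 2035 and 2403 bp. The order of these medians depends on the start sites used: with those of every transcript the members' median was 3101 bp against 2234 bp, and with the 5′ end of the gene alone, which leaves 6 of the 9 marked, it was 2525 bp against 2202 bp. Tet3, Mbd2, Dnmt3a and Tet2 lay above the median of all marked genes in each list, and Mbd1, Dnmt1, Dnmt3b, Tet1 and Uhrf1 lay below it.

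**Figure D1:**
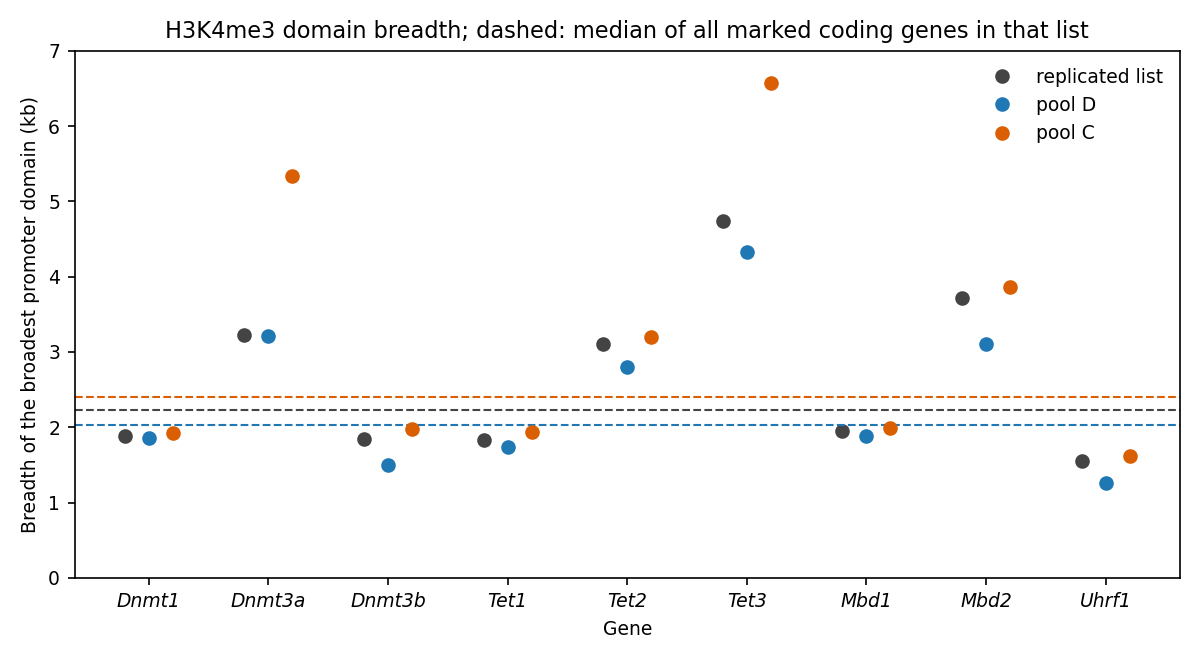
Breadth of the broadest promoter domain (kb) of each gene in the replicated list (grey), pool D (blue) and pool C (orange), with dashed lines at the median of all marked protein-coding genes in each list. Tet3 was the broadest of the 9 in all lists (4736 bp in the replicated list) and Uhrf1 the narrowest (1550 bp).

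Pool C gave the broader domain for 9 of the 9 genes, by a factor of 1.03 (Dnmt1) to 1.67 (Dnmt3a). The direction is common to the lists as a whole: among 13907 genes marked in both pools, 96.8% were broader in pool C, with a median ratio of 1.17. Where the ratios of the 9 genes rank among these was not computed. The pool C list holds 34193 peaks, the pool D list 24690 and the replicated list 27063. The part of depth in this was not tested.

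Dnmt3a, the de novo enzyme found in neurons as well as in dividing cells, carried a broad promoter domain and had the highest ratio of breadth between pools (1.67), while in bp Tet3 differed more. Its domain covered chr12:3805927-3809157 (3231 bp) in the replicated list, 3207 bp for pool D and 5340 bp for pool C (pool mean 4274 ± 1508 bp, SD, n = 2). These were broader than 76.8%, 82.1% and 92.2% of marked genes. The breadth depends on joining neighbouring peaks: with no gap closed it was 1516 bp in the replicated list, below the 2081 bp median of all marked genes. The added length in pool C came from 2 weak peaks in the first part of the gene, of 607 bp (−log10 q of 4.39) and 708 bp (3.12), whereas the strongest peak had a −log10 q of 191. The domain spans 2 start-site groups 1023 bp apart. The second of them starts Dnmt3a-201, which encodes the 908-residue long form. Its 1000 bp window holds 158 CpG, more than 99.9% of the 5′ ends of protein-coding genes, and the strongest summit lay 1135 bp downstream of it in the replicated list.

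The start of the short Dnmt3a form, Dnmt3a-205 (689 residues), lies 85721 bp into the gene at chr12:3891728. This form is known as Dnmt3a2 and is prominent in embryonic cells. In pool D the nearest peak was 38375 bp away, and the replicated list had none within 35667 bp. Pool C had a peak of 577 bp there (chr12:3891099-3891675, −log10 q of 7.96), which ends 53 bp before the start, and the list called on both pools together had one of 493 bp (3.67). The window holds 51 CpG, the most of any start-site group of these genes without a replicated peak. Further peaks lay in Dnmt3a introns, outside the promoter domains and over 1 kb from every annotated start. There were 3 in the replicated list, 1 in pool D and 4 in pool C. One of them, about 28398 bp from the first start, was 1425 bp in the replicated list (−log10 q of 10.3), 758 bp (2.98) for pool D and 1553 bp (21.3) for pool C. It was the sole intronic Dnmt3a peak seen in both pools. A 267 bp peak of the replicated list at chr12:3855795-3856061 (−log10 q of 2.26) was in neither pool list. The remaining replicated one, of 428 bp at chr12:3818279-3818706, had a −log10 q of only 0.611. Pool C alone had a peak there (320 bp, 4.39). The replicated list holds peaks down to a −log10 q of 0.26, so these calls are weak.

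Dnmt3b, the de novo enzyme best known from embryonic cells, carried the mark at its CpG-rich start. The domain was 1839 bp (chr2:153648846-153650684) in the replicated list, 1502 bp for pool D and 1973 bp for pool C (pool mean 1738 ± 333 bp, SD, n = 2). It was narrower than the median gene and had a signal above 17.5% of marked genes in the replicated list, 33.3% in pool D and 19.1% in pool C. Its start window holds 102 CpG, more than 93.5% of gene 5′ ends. A start of the antisense gene Dnmt3bos lies in the same domain, and unstranded ChIP peaks cannot be divided between the genes. Dnmt3a and Dnmt3b, with high CpG counts at both starts, differed in breadth in each list, with Dnmt3a the broader when peaks were joined and the narrower in the replicated list when they were not.

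Dnmt1, the maintenance enzyme, was marked at 1 of its 4 start-site groups. The domain was 1884 bp (chr9:20951478-20953361) in the replicated list, 1862 bp for pool D and 1924 bp for pool C (pool mean 1893 ± 43.8 bp, SD, n = 2), the most alike between pools of the 9. It covers the start at chr9:20952979 of Dnmt1-201, which encodes 1620 residues. Dnmt1-203 (1501 residues) and Dnmt1-207 (1502 residues) start in the same marked group. The upstream start of Dnmt1-202, which encodes 1501 residues and corresponds to the start known from oocytes, had 4 CpG in its window and no peak within 6527 bp in the replicated list, 6529 bp in pool D or 6527 bp in pool C. The top signal of the marked start ranked above 20.1% of marked genes in the replicated list, 21.5% in pool D and 52.8% in pool C. These ranks are among 14169, 13911 and 14479 marked genes, and the cause of the difference between pools was not tested. The palindromic consensus motif of NRF1 lay 29 to 38 bases after the marked start.

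Uhrf1, the partner of Dnmt1 at the replication fork, had the narrowest domain. It was 1550 bp (chr17:56303260-56304809) in the replicated list, 1255 bp for pool D and 1616 bp for pool C (pool mean 1436 ± 255 bp, SD, n = 2), broader than 21.9%, 16.4% and 21.4% of marked genes. Start-site groups whose first starts lie 992 bp apart, each with a transcript for a 782-residue protein, shared that domain. It holds 74.2 CpG per kb. In pool D the domain began 15 bp after the first of these starts. An E2F-type motif (TTTGGCGC, TTTCCCGC, TTTCGCGC or TTTGCCGC) lay at −185 to −178 from the second start, and E2F factors drive genes of the cell cycle. Starts 9342 and 14705 bp into Uhrf1 had no peak.

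**Figure D2:**
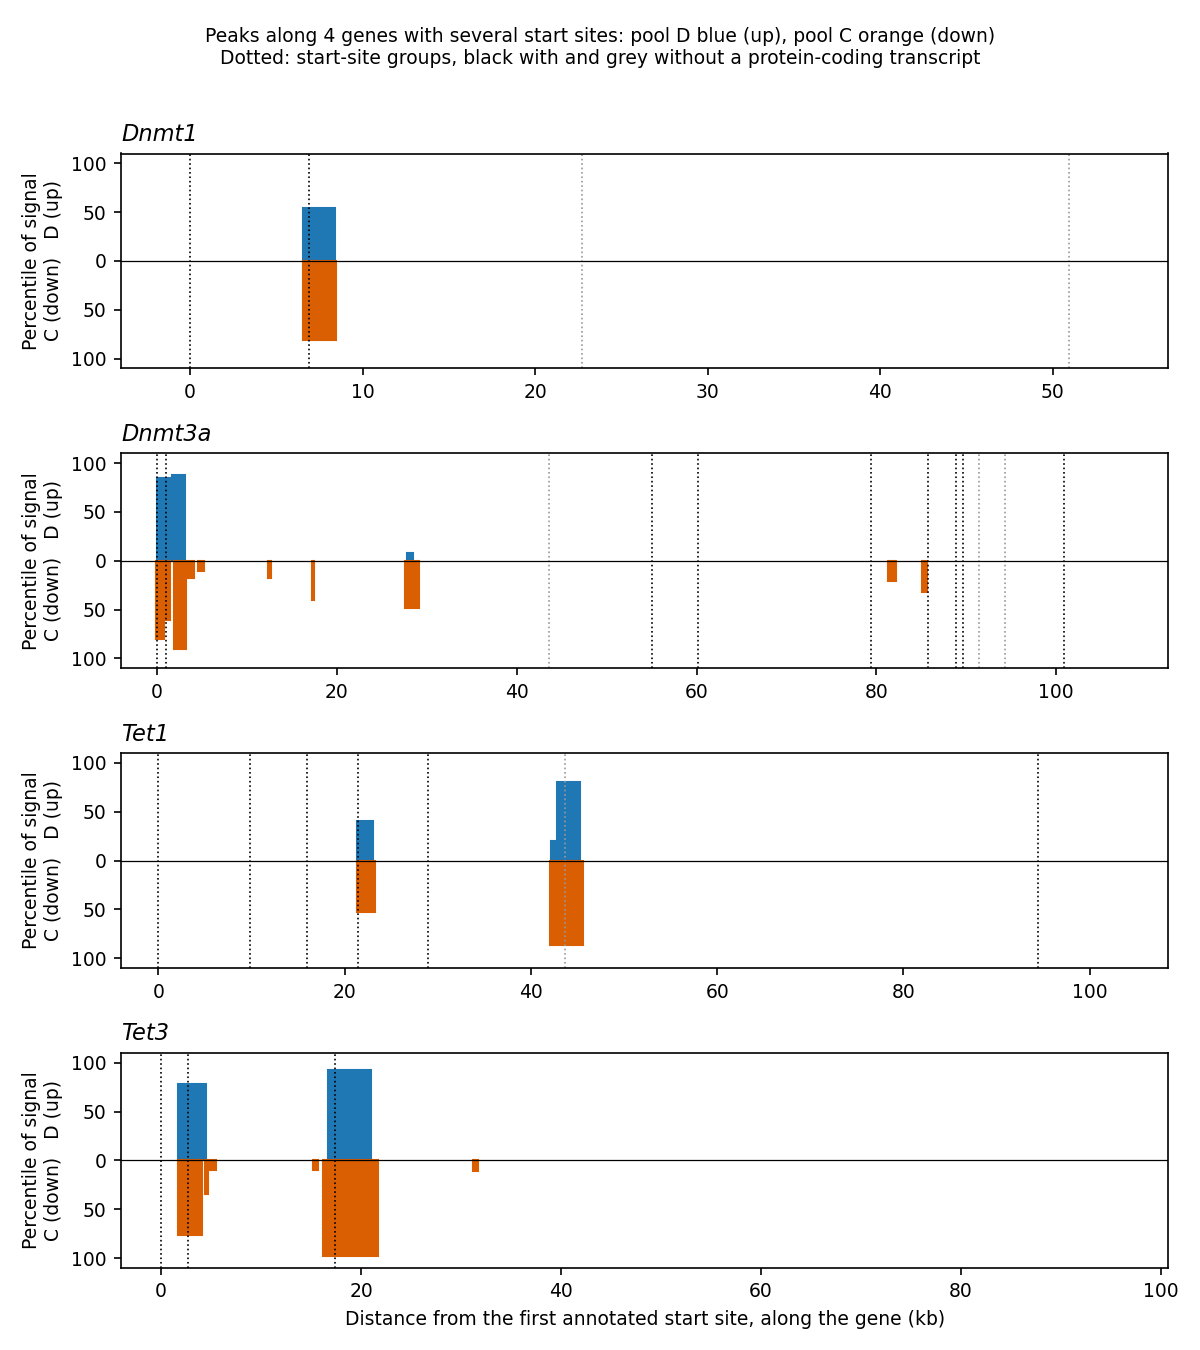
Peaks of pool D (blue, up) and pool C (orange, down) along Dnmt1, Dnmt3a, Tet1 and Tet3, with height the percentile of peak signal within each list and the horizontal axis in kb from the first annotated start. Dotted lines are start-site groups, black with and grey without a protein-coding transcript, and the first start of Dnmt1, Tet1 and Tet3 had no peak in either pool.

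Tet3, the member of the Tet family with the broadest domain, had 2 separate marked promoters in every list. Among all marked genes, 7.04% had 2 or more separate domains in the replicated list, 6.58% in pool D and 7.74% in pool C. The larger covers chr6:83437699-83442434, which is 4736 bp in the replicated list, 4331 bp for pool D and 6571 bp for pool C (pool mean 5451 ± 1584 bp, SD, n = 2), broader than 91.7%, 92.3% and 96.2% of marked genes. It lies at the start of the transcript for a 1668-residue protein, 17406 bp from the first start, and extended 3979 bp downstream and 756 bp upstream in the replicated list, 3580 and 750 bp in pool D, and 4328 and 2242 bp in pool C. Only 24.9 CpG per kb lay in it, fewer than in most domains (median 42.5). The 1000 bp window of the start itself holds 56 CpG, more than 62.6% of gene 5′ ends. The second, at the start of Tet3-203 (1803 residues), was 2895 bp in the replicated list, 2789 bp for pool D and 3784 bp for pool C. That start window has 127 CpG and its domain 69.1 CpG per kb. Forms of Tet3 with and without a CXXC DNA-binding domain are known to come from different promoters. The broader Tet3 promoter was the one with the lower CpG density. The noncoding gene B230319C09Rik starts in the broader domain, and the share of the mark that belongs to each gene was not tested.

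Tet1, with 7 start-site groups, carried the mark at 2 of them. At the start of Tet1-210 (chr10:62887512), whose annotated coding sequence is incomplete, the domain was 1829 bp in the replicated list, 1731 bp for pool D and 1935 bp for pool C (pool mean 1833 ± 144 bp, SD, n = 2). Its signal was low, above 6.92%, 9.42% and 9.67% of marked genes. The other peak lies at Tet1-202, a transcript without a coding annotation that starts 43692 bp into the gene, with 69.5% of the longest coding sequence still 3′ of it. There the domain was 3482 bp in the replicated list, 3109 bp for pool D and 3582 bp for pool C, and its signal ranked above 66.1%, 62.0% and 66.0%. The start without a coding annotation thus carried the broader and stronger domain of the gene in each list. It is also the CpG-poorest of the marked start-site groups, with 21 CpG in its window and 16.7 per kb in the domain, fewer than in all but 3.37% of domains. The starts of Tet1-206 (2039 residues) and Tet1-201 (2007 residues), the longest annotated proteins, had no peak within 11442 and 5834 bp in the replicated list.

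Tet2, which lacks the CXXC DNA-binding domain of Tet1 and Tet3, had 1 domain over starts 749 bp apart. It was 3101 bp (chr3:133542371-133545471) in the replicated list, 2794 bp for pool D and 3204 bp for pool C (pool mean 2999 ± 290 bp, SD, n = 2). The domain was made of peaks of 2075 and 890 bp in the replicated list, and the larger alone lies just below the 2081 bp median of all genes with no gap closed. Its signal was above 92.6% of marked genes in the replicated list, 82.2% in pool D and 96.6% in pool C, the highest of the 9 genes in the replicated list and pool C but below Mbd1 and Tet3 in pool D. The start windows hold 61 and 105 CpG, and the 5 start-site groups further in the gene, with 0 to 14 CpG, had no peak. The start of the antisense gene Gm42567 lies in the same domain.

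**Figure D3:**
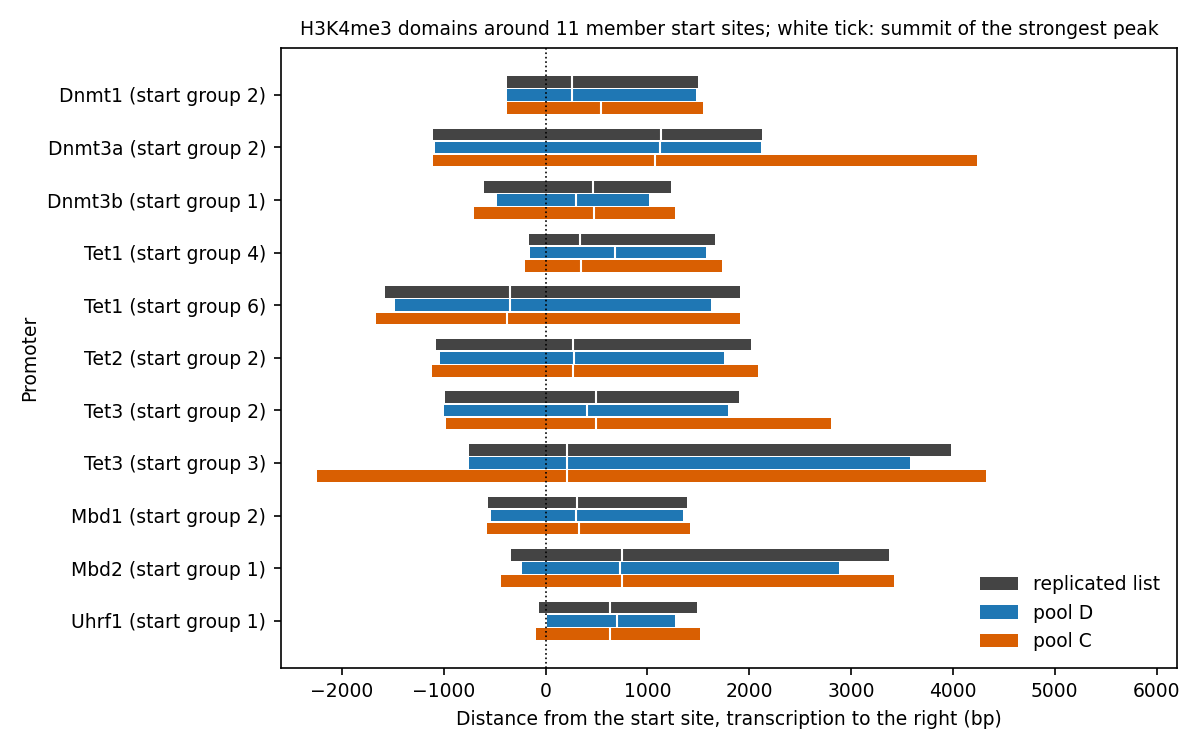
Extent of the H3K4me3 domain around 11 start sites (bp from the start, transcription to the right) in the replicated list (grey), pool D (blue) and pool C (orange), with the summit as a white tick. Each domain is drawn from the first start-site group in it with a complete coding transcript, or else its first group, and from there 11 of 11 reached further downstream than upstream and 10 of 11 summits lay downstream in each list.

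The summit upstream of its start was that of the noncoding Tet1 start (group 6). These counts depend on the start chosen, and taking the first group of a domain favours reach downstream. The same counts were not made over all marked genes, so whether they are particular to these genes was not tested. From the second Uhrf1 start, which lies in the same domain as the first, the domain reached 1053 bp upstream and 496 bp downstream in the replicated list, 977 and 277 bp in pool D, and 1089 and 526 bp in pool C. Its summit then lay upstream, at −355, −292 and −359 bp.

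Mbd1 and Mbd2, the readers, both lie on chromosome 18 and their sequences are not shown. Mbd1 had a domain of 1949 bp (chr18:74267612-74269560) in the replicated list, 1881 bp for pool D and 1991 bp for pool C (pool mean 1936 ± 77.8 bp, SD, n = 2). Its signal was above 90.6%, 87.2% and 90.6% of marked genes, a strong promoter peak. Its breadth was above only 38.7%, 43.7% and 35.5%, below the median but within the quartiles of all marked genes in each list. Mbd2, a subunit of the NuRD corepressor complex, had a broad domain of 3723 bp (chr18:70567844-70571566) in the replicated list, 3112 bp for pool D and 3860 bp for pool C (pool mean 3486 ± 529 bp, SD, n = 2). Of it, 3377 bp lay downstream of the start and 345 bp upstream in the replicated list. A separate 690 bp peak lay upstream at chr18:70564728-70565417. Pool C also held that peak, at 988 bp, and pool D did not. With gaps up to 3 kb closed it joins the promoter domain, which is then 6839 bp in the replicated list.

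The 9 genes have 80 annotated transcripts with 74 separate start sites. Joining sites within 500 bp gave 48 start-site groups, and 15 of them (31.2%) were marked in the replicated list and in pool D and 16 (33.3%) in pool C. Over all protein-coding genes 38.1%, 36.7% and 39.8% of groups were marked. Of the 29 groups with a coding transcript, 13 were marked in the replicated list, and of the 19 without one, 2. The first group of a gene was marked in 6 of 9 and a later group in 9 of 39. Neither split was computed over all protein-coding genes, so whether it is particular to these genes was not tested. The unmarked first groups belong to Dnmt1, Tet1 and Tet3. The 15 marked groups fall in 11 separate domains. Marked groups had a median of 61 CpG in 1000 bp and unmarked groups 13. Over all genes the 5′ ends had medians of 60 in marked genes and 9.0 in unmarked genes. That split is by gene and not by start-site group, whereas the unmarked groups here all lie in marked genes, so the values are not like for like. The ranges overlapped, from 21 CpG upward for marked groups and up to 51 for unmarked ones.

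**Figure D4:**
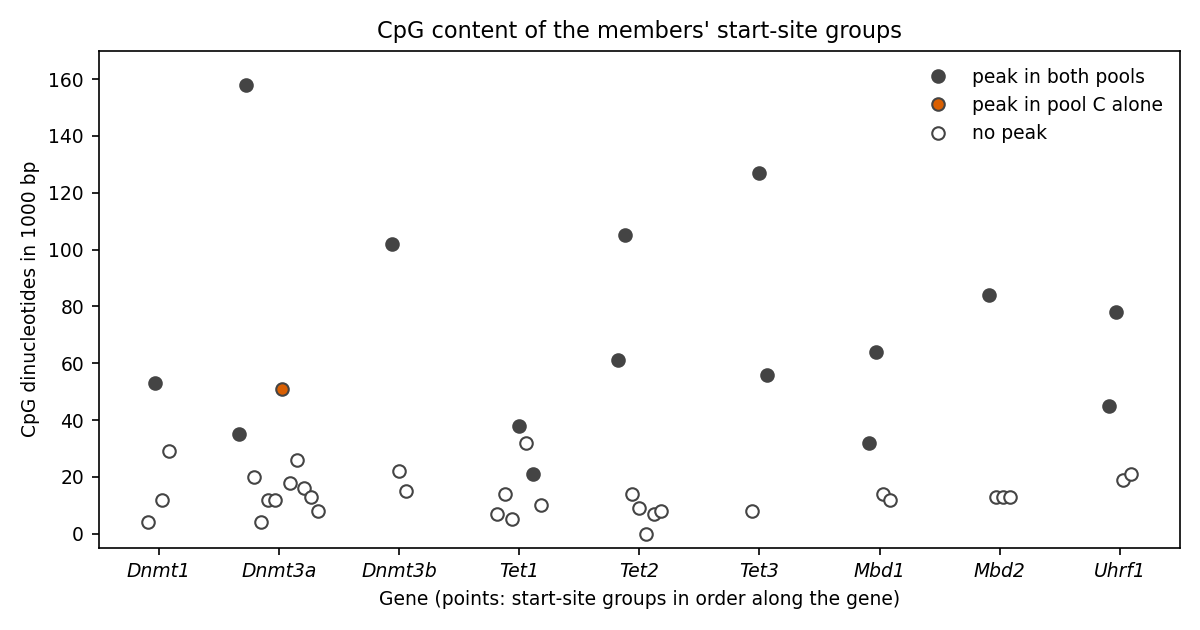
CpG dinucleotides in the 1000 bp around each start-site group of the 9 genes, in order along each gene, filled where both pools had a peak, orange where pool C alone had one and open where none did. Marked groups had a median of 61 CpG and unmarked groups 13, and the orange point is the Dnmt3a-205 start with 51.

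Short motifs were searched on both strands from 250 bases before to 49 after each start. The GC box (GGGCGG) occurred at 9 of 15 marked and 2 of 33 unmarked groups, and in 35.7% of 32851 RefSeq promoters of GRCm38.p6, windows of the same length. Its highest number was at Dnmt3a-201. The NRF1 motif occurs in 0.971% of those promoters and the E2F-type motif in 2.26%. CRE (TGACGTCA), in 1.79% of promoters, was at no start-site group of these genes. The E-box (CACGTG), in 7.15%, was at the marked Tet3-203 start and the Dnmt3a-205 start. At Uhrf1 the E2F-type match shares no base with a GC box. A match is a description of the letters and not of binding.

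The other genes of the pathway were taken from a list of 40, among them cofactors, base excision repair enzymes and further readers. In the replicated list 38 were marked, against 37 (92.5%) for pool D and 38 for pool C. Their median domain of 2264 bp was close to the 2234 bp of all marked genes, and 19 of 38 lay above it. Dppa3, a germ cell and early embryo factor, had no peak in any list. In the replicated list the broadest domains belonged to Mbd6 (5621 bp, 5394 ± 435 over the pools), Zbtb38 (5470 bp, 5464 ± 443), Ogt (5201 bp, 5142 ± 202) and Gadd45b (5143 bp, 4772 ± 760), each with n = 2. Zbtb38 binds methylated DNA, Ogt is the O-GlcNAc transferase that partners Tet proteins, and Gadd45b is an activity-induced gene linked to demethylation in neurons. The Mbd6 domain also holds the Ddit3 start. The order differed by list, as seen for a pair of genes chosen after their values were seen: Cxxc4 was 1866 bp in the replicated list, 1747 bp in D and 6966 bp in C, and Kdm2b 4801, 4222 and 6689 bp, so both were broader in pool C than the 4 genes above. The narrowest were Pold1 (789 bp), a polymerase subunit, and Dnmt3l (683 bp), the inactive partner of the de novo enzymes, which had no pool D peak and whose domain holds the start of Aire.

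Replication genes were described beside Dnmt1 and Uhrf1 because both proteins act at the replication fork. Against 64.8%, 63.7% and 66.3% of all protein-coding genes in the replicated list, pool D and pool C, all 16 were marked in each. Their median domain was 1538 bp in the replicated list, 1441 bp for pool D and 1575 bp for pool C, and 2, 2 and 3 of the 16 lay above the median of all marked genes. Dnmt1 was broader than this median in each list. Uhrf1 lay near it, at 1550 bp in the replicated list and 1616 bp in pool C, and below it in pool D at 1255 bp. The mark does not measure division, and most hippocampal cells are known not to divide.

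**Figure D5:**
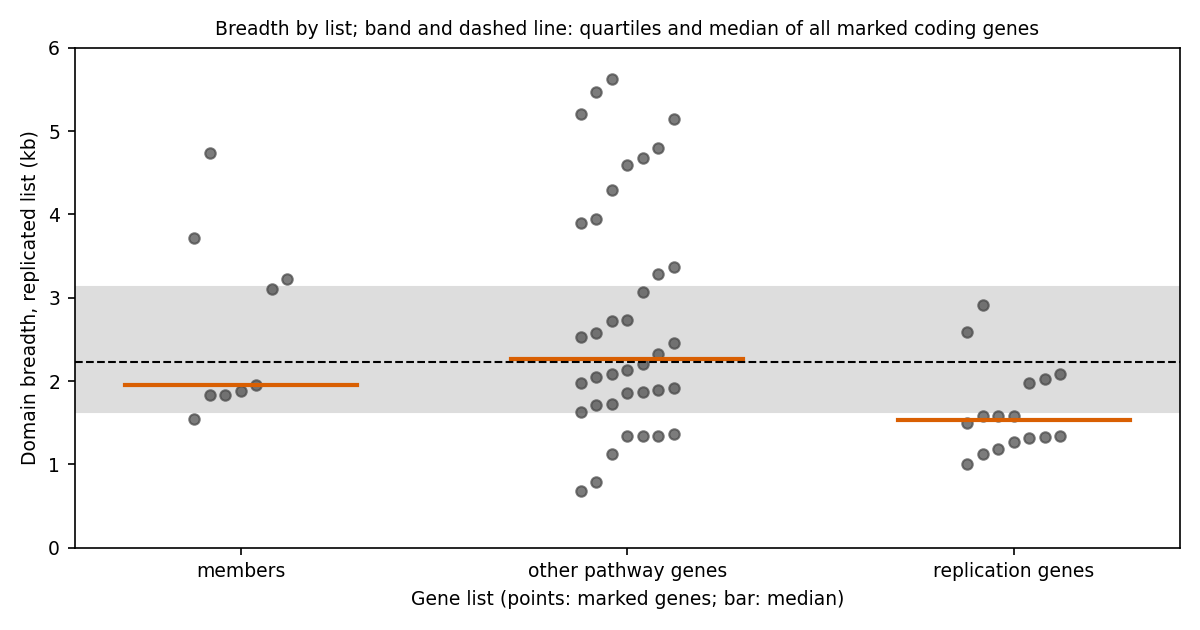
Breadth of the promoter domain (kb) in the replicated list for the 9 genes, the 38 other pathway genes with a peak and the 16 replication genes, with an orange bar at each median (1949, 2264 and 1538 bp). The grey band and dashed line are the quartiles (1632 and 3134 bp) and median (2234 bp) of all marked protein-coding genes.

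The labelled tissue was checked on 31 marker genes, set beside the 64.8% of all protein-coding genes with a replicated peak. Those of neurons (7 of 7), hippocampal fields (3 of 3), astrocytes (4 of 4), oligodendrocytes (4 of 4), precursors (2 of 2) and endothelium (3 of 3) had a replicated peak, and those of other tissues (Alb, Myh6, Krt14 and Pou5f1) had none. Among 4 microglia genes, 2 had a replicated peak, with Cx3cr1 and Aif1 lacking one. Pool D had 0 of the 4 and pool C 4 of 4. Pool D also lacked 1 of the 4 oligodendrocyte genes. The part of cell composition in the pool differences above was not tested.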

How the data were processed

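H3K4me3 ChIP-seq peak lists were used as deposited, on build mm10 per the labels. The per-library notes name the alignment behind each list, which assigned the lists to pool D and pool C. The technical replicates of a pool share 1 list, so they were not compared. Each peak carries a score, a signal value and a −log10 q value, all deposited by the authors. Signal was ranked only within a list. The sources used here do not name the peak caller, its settings or the read depth. The labels name a possible control experiment.

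Peaks were set against GENCODE M21 and GRCm38.p6 with Python 3.11.15, numpy 2.4.6, pysam 0.24.0 and matplotlib 3.10.9. A promoter was 1 kb on either side of a protein-coding start site, overlap was at least 1 bp, and peaks within 1 kb formed a domain. Start-site groups used every transcript, with sites within 500 bp joined. CpG was counted in 1000 bp. RefSeq promoters matched 7 of the 9 genes. No test was made, since each pool has 1 list. The code was tested on simulated data. Alternatives covered the list, threshold, window, overlap, gap and start-site rule. The members and gene lists were chosen with earlier results of these data known. Named are all 9 genes and, from the pathway list, genes without a replicated peak, the 4 broadest and the narrowest marked ones, from the other lists those without a replicated peak, and genes starting in a member's domain. A gene of the pathway list that this rule would name is not reported here. No per-sample column was left unused.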

Additional observations from a re-analysis of the deposited data

How the results depend on the processing

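All 9 genes were marked under each alternative run except when only the 5′ end of the gene was used, which left 6. The median breadth of the marked members was 1949 bp, below the 2234 bp of all marked genes, and became 3101 bp (all genes 2234 bp) with the start sites of every transcript and 2525 bp (all genes 2202 bp) with the 5′ end alone. The median of the marked pathway genes was 2264 bp and 2622 bp in pool C alone. Of 96 breadths of single members under alternatives, 86 stayed within 1 SD of the pools and 10 did not, 4 wider and 6 narrower. The SD came from the pool D and pool C lists, which were also among the alternatives, so this count does not measure robustness. With no gap closed Dnmt3a was 1516 bp and Tet2 2075 bp, and 2 members in place of 4 lay above the median of all genes. With gaps up to 3 kb closed Mbd2 was 6839 bp, because the upstream peak joined. With every transcript Tet1 was 3482 bp. The cause of the other shifts was not tested. No paired analysis was possible because each pool has 1 peak list and the shared numbers are technical replicates. Depth is unknown, so a missing weak peak, as at Dnmt3a-205 in pool D, is no sign that the mark is absent.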
